A study of Mus musculus with 16 samples.

Results

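Transcripts of 10 genes that carry amino acid availability and stress to the kinase complex mTORC1 were followed in mouse thyroids, namely Castor1, Castor2, Sesn1, Sesn3, Depdc5, Mtor, Rptor, Deptor, Ddit4 and Tsc2, out of 21640 genes in the count table. The set was chosen by the p of its lead gene, since Castor2 had the lowest p of 17238 genes tested in the diet comparison at 3 weeks, and so every value of the 10 genes at 3 weeks is given as a description with no test. The mice at 6 weeks were other animals, which that p did not use, so the 6-week values were tested. The 10 genes were nonetheless chosen with earlier results of these data known, so the 6-week tests are not free of selection. All 16 libraries came from whole thyroids of male wild-type C57Bl/6J mice, 1 library per mouse, and the mice were 8 weeks old when their diets began. Mice on the control diet (CD) ate chow, and mice on the HF+SD received high-fat food and sucrose water, for 3 or 6 weeks, with 4 mice in each of the 4 groups. For the CD at 6 weeks the study's text counts fewer mice than were deposited and does not say which, so every deposited mouse entered the fits, and fits without each mouse are given where they matter. The study asked how overnutrition acts on the thyroid, and these genes bear on the nutrient-sensing arm of that question.

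mTORC1 is a kinase complex on the lysosomal surface that promotes protein synthesis and growth when amino acids are plentiful. Arginine is read by CASTOR1, and leucine by members of the Sestrin family. Each sensor binds the GATOR2 complex in the absence of its amino acid, and GATOR2 in turn restrains GATOR1, which switches off the Rag GTPases that bring mTORC1 to the lysosome. A separate arm runs through the TSC complex, which inactivates Rheb, the direct activator of mTORC1. In the thyroid, mTORC1 is known for its part in the growth of thyrocytes under TSH.

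The promoters of Castor1, Castor2 and Ddit4 are shown because, among the 10 genes, Castor2 and Ddit4 carried the diet differences at 6 weeks and Castor1 is the closest relative of Castor2. They are RefSeq sequences of build GRCm38.p6, read 5′ to 3′ in the direction of the gene over 300 bases around the start of the gene. Capitals mark matches on either strand to 6 motifs, namely the cAMP response element TGACGTCA, its core TGACG (contained in the full element), the E-box CACGTG, the ATF4 element TGATGNAA, the GC box GGGCGG and the CCAAT box CCAAT.
Castor1 (chr11:4217975-4218274, plus strand): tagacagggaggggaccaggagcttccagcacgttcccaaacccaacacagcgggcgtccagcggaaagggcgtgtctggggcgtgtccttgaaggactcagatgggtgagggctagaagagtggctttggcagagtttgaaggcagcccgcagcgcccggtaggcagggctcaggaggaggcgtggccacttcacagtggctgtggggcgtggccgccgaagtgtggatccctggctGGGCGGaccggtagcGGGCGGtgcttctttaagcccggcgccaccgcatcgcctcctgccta
Castor2 (chr5:134099498-134099797, plus strand): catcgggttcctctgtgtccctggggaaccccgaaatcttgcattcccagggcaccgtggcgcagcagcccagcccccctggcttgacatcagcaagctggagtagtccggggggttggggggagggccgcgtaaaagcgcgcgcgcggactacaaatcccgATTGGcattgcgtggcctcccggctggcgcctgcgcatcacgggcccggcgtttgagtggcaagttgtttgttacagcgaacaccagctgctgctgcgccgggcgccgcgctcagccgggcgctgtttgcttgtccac
Ddit4 (chr10:59951721-59952020, minus strand): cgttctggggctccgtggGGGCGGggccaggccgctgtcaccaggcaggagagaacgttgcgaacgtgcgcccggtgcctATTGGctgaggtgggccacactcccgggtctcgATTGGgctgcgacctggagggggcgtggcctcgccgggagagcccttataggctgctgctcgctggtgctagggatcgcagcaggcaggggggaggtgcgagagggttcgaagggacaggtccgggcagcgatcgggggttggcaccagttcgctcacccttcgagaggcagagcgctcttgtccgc
The Castor2 window held 1 CCAAT box, which stands there as its reverse complement ATTGG. The Ddit4 window held 2 CCAAT boxes and 1 GC box, and the Castor1 window held 2 GC boxes. In all 32851 promoters of the same table and length, 37.4% held a CCAAT box and 35.7% a GC box. The cAMP response element (1.79% of all promoters), its core (20.8%), the E-box (7.15%) and the ATF4 element (3.97%) had no match in these 3 windows. These matches describe letters only.

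Library totals ran from 30025256 to 48508653 counts, and the 10 genes had between 174 counts (Castor1) and 9485 counts (Sesn3) in a library. Values below are CPM, which scales a count to the TMM-adjusted size of its library within a time point. Thyrocyte marker genes were abundant in all libraries, and their 8 genes together took 257979 to 313228 CPM at 3 weeks and 67347 to 141202 CPM at 6 weeks, with 4 and 3 of the 8 higher on the HF+SD. At 6 weeks, 22 skeletal muscle genes took 0.0965%, 3.31%, 13.9% and 10.1% of the counts in M22, M43, M45 and M48 on the CD, against 0.112% to 0.399% in the HF+SD mice. At 3 weeks the same genes took at most 0.00923% in any mouse. All 22 fell on the HF+SD at 6 weeks, and 1 of 19 tested rose at 3 weeks. Of the other lists, 6 of 7 endothelial markers rose at both time points, 6 of 7 white adipocyte markers fell at both, and brown adipocyte markers fell in 5 of 5 tested at 3 weeks, with Zic1 at 0, and in 4 of 4 tested at 6 weeks. C cell markers were called in both directions at 3 weeks (1 higher, 2 lower of 5) and fell in 2 of 5 at 6 weeks, 1 of 6 tested leukocyte markers was higher at 6 weeks, and none of 3 parathyroid markers was called. The part of these cell types in the results below was not tested. For muscle, fits with a muscle score and without M45 and M48 are given as a description. In whole tissue, fewer cells of a type and less RNA per cell cannot be told apart. Library names of the 2 time points begin with different numbers, whose meaning the labels do not give, so levels were not tested between times.

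Levels can be compared between genes only per length, so CPM was divided by the length of each gene's merged exons in GENCODE M21, although the annotation used for counting is not given in the sources used here. In CD mice at 3 weeks the order per kilobase was Ddit4 at 31.8 ± 17.5 CPM per kb (SD, n = 4), Sesn1 at 14.9 ± 4.05, Deptor at 13.7 ± 0.918, Sesn3 at 12.3 ± 3.17, Mtor at 11.1 ± 0.878, Tsc2 at 9.62 ± 0.219, Castor1 at 6.52 ± 1.70, Castor2 at 5.24 ± 0.333, Rptor at 2.98 ± 0.711 and Depdc5 at 1.24 ± 0.214 CPM per kb. Neighbours from Ddit4 to Mtor lay within the larger SD of each pair, as did Castor1 and Castor2, and the rest were farther apart. On the HF+SD at 3 weeks the order was Ddit4 (33.2 ± 2.42), Sesn1 (19.5 ± 1.07), Castor2 (16.4 ± 0.370), Deptor (16.3 ± 0.765), Mtor (14.9 ± 1.23), Sesn3 (13.9 ± 1.02), Tsc2 (9.88 ± 0.578) and Castor1 (6.06 ± 1.06), so that Castor2 stood beside Deptor, within their SD. At 6 weeks Castor2 and Castor1 were level in CD mice, at 4.27 ± 2.00 and 4.21 ± 0.879 CPM per kb, and stood at 10.9 ± 1.99 and 5.37 ± 1.17 on the HF+SD. The scarcest transcript per length in all 4 groups was Depdc5 (0.980 to 1.24 CPM per kb) and the next was Rptor (1.65 to 4.18). Sesn1 (22.8 ± 3.21) and Deptor (21.2 ± 4.74) led in CD mice at 6 weeks, within 1 SD of each other, and Ddit4 (9.24 ± 1.84), Sesn3 (8.62 ± 2.08), Mtor (7.01 ± 0.958) and Tsc2 (6.41 ± 1.05) followed, each within the larger SD of its neighbour. On the HF+SD at 6 weeks Ddit4 (28.4 ± 5.28), Sesn1 (23.3 ± 5.34) and Deptor (18.3 ± 2.68) formed such a group, Sesn3 (12.6 ± 2.38) stood beside Castor2, and Mtor (8.80 ± 0.922) and Tsc2 (5.58 ± 0.801) lay lower.

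**Figure D1:**
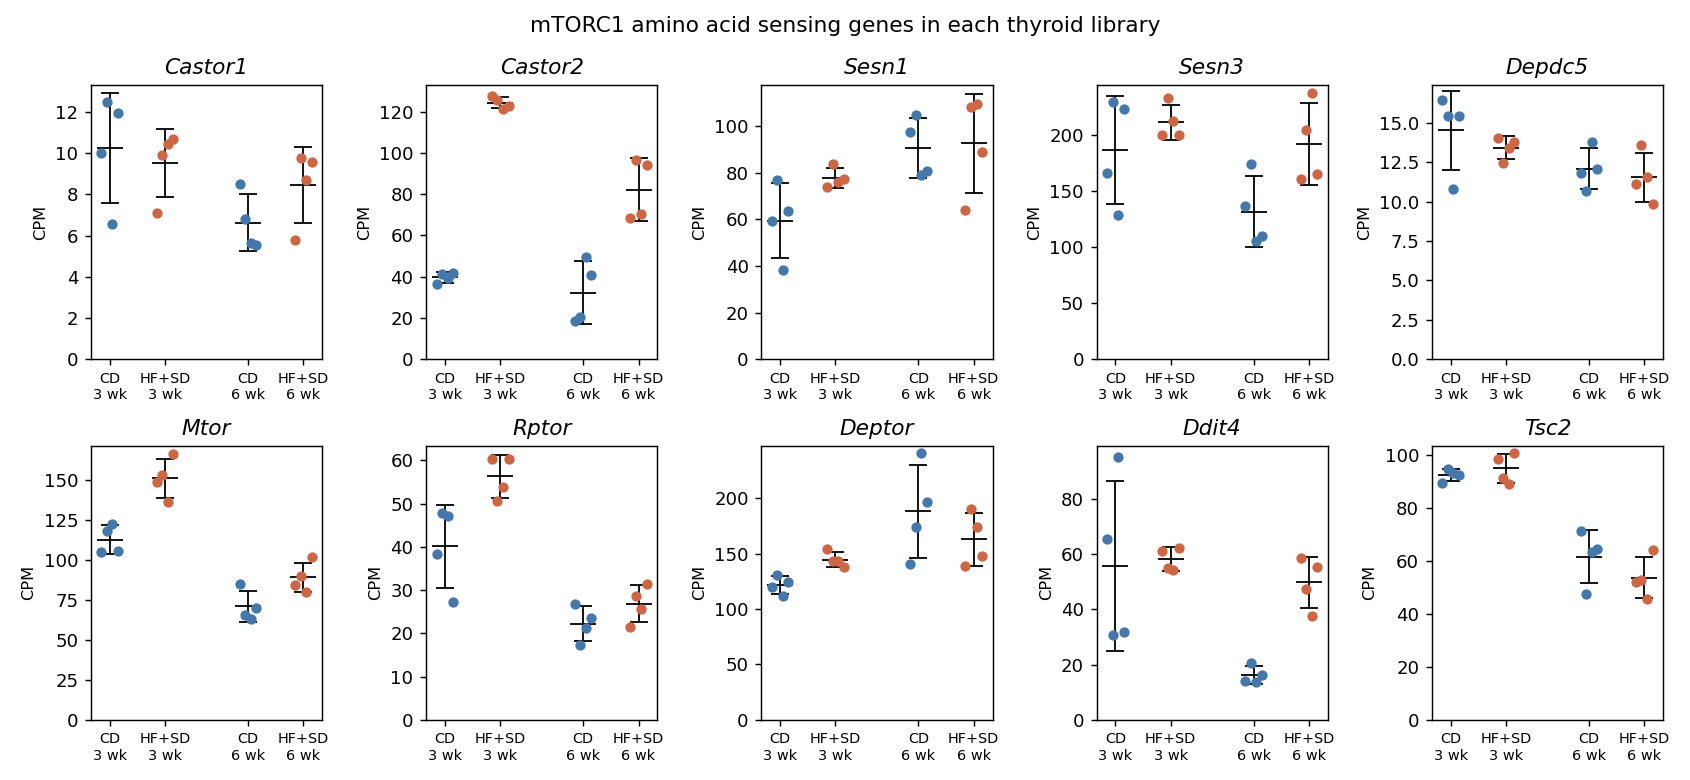
CPM of the 10 genes (vertical axes, from 0) in each of the 16 libraries, with CD in blue and HF+SD in orange at 3 and 6 weeks. Horizontal bars are group means and error bars are SD over 4 mice. Castor2 lay between 121 and 127 CPM in the 4 HF+SD mice at 3 weeks and between 36.2 and 41.8 in the CD mice.

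After 3 weeks, the largest difference among the 10 genes was that of Castor2, the paralog of the arginine sensor CASTOR1, whose transcript stood 3.14-fold higher on the HF+SD. Mtor, the kinase itself, and Rptor, which encodes the Raptor subunit that defines mTORC1, also lay higher in every HF+SD mouse than in any CD mouse, as did Deptor, an mTOR-binding inhibitor. The diets overlapped for the other 6 genes. Non-overlap of this kind held for 4 of the 10 genes and for 23.6% of all 17238 genes tested, and since the set was picked in this comparison nothing is read from the count.

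Castor2 had 36.2, 41.1, 39.3 and 41.8 CPM in the CD mice M53, M54, M55 and M96, and 127, 126, 121 and 123 CPM in the HF+SD mice M7, M19y, M20y and M31. The spread within each diet was small beside the gap between them, with means of 39.6 ± 2.52 and 124 ± 2.80 CPM (SD, n = 4). The log2 fold change of HF+SD over CD was 1.65 (SE 0.071). By size of increase it stood at rank 266 of the 17238 genes, and the genes next to it by p were Adamtsl2 (log2 fold change 3.28, SE 0.15) and Ckb (2.83, SE 0.14), whose increases were larger but varied more. Its paralog Castor1 had 10, 12.5, 6.58 and 12 CPM on the CD and 7.10, 9.91, 10.5 and 10.7 on the HF+SD, fully overlapping, with a log2 fold change of -0.10 (SE 0.21).

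Among the Sestrins, Sesn1 had 59.2, 77, 38.1 and 63.5 CPM in CD mice and 73.8, 83.7, 75.9 and 77.4 in HF+SD mice (log2 fold change 0.39, SE 0.18). Sesn3 had 166, 230, 129 and 224 CPM against 201, 234, 213 and 200 (log2 fold change 0.18, SE 0.17). For both Sestrins the CD mice were spread widely, with M55 the lowest, and the HF+SD mice lay inside or just above the upper part of that spread. Depdc5, a GATOR1 subunit, had 16.4, 15.4, 10.8 and 15.5 CPM on the CD and 14.1, 12.4, 13.4 and 13.8 on the HF+SD, with a log2 fold change of -0.11 (SE 0.13).

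Mtor had 105, 118, 122 and 105 CPM in CD mice and 149, 153, 136 and 166 in HF+SD mice, with a log2 fold change of 0.42 (SE 0.087). Rptor had 38.4, 47.7, 47.2 and 27.3 CPM against 60.4, 50.6, 53.9 and 60.3, with a log2 fold change of 0.49 (SE 0.16). Deptor had 120, 131, 112 and 124 CPM against 154, 144, 144 and 138, with a log2 fold change of 0.25 (SE 0.074). The kinase, its defining subunit and its inhibitor thus all lay higher in the 4 HF+SD mice, by 1.34-fold, 1.40-fold and 1.19-fold. With libraries scaled to thyrocyte genes, their log2 fold changes were -0.034, 0.044 and -0.20. Relative to TMM, counts on those scaling genes stood higher on the HF+SD, so that scaling shifts the median of all genes by -0.46. Whether the diet itself raised the scaling genes was not tested.

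Ddit4 encodes REDD1, a stress-induced activator of the TSC complex, and its 3-week CD mice fell into a high and a low pair, at 65.4 and 95.3 CPM (M53 and M55) and at 30.9 and 31.9 CPM (M54 and M96). The HF+SD mice lay between those pairs at 61.4, 55, 54.3 and 62.5 CPM, and the log2 fold change was 0.06 (SE 0.32). Tsc2, the GTPase-activating subunit that acts on Rheb, was steady, with 89.7, 94.7, 93.1 and 92.7 CPM on the CD and 98.6, 91.5, 89.2 and 101 on the HF+SD. Its log2 fold change was 0.04 (SE 0.068).

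**Figure D2:**
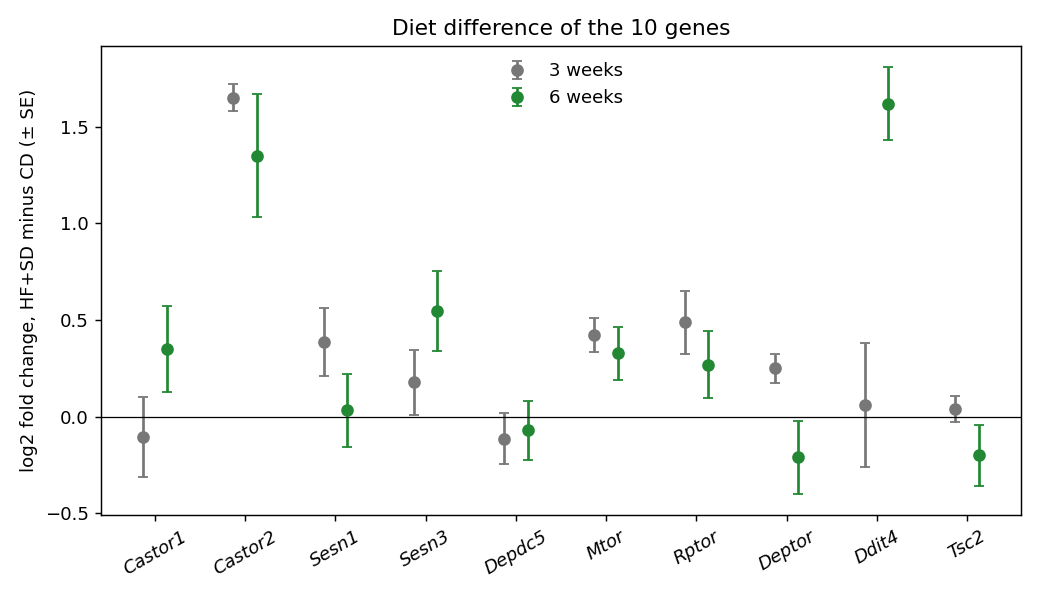
Log2 fold change of HF+SD minus CD (vertical axis, points, with SE as error bars) of the 10 genes at 3 weeks (grey) and 6 weeks (green), 4 mice per diet. Castor2 stood at 1.65 and 1.35, and Ddit4 at 0.06 and 1.62. The 3-week values were part of the choice of genes and are shown as a description.

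After 6 weeks, Castor2 and Ddit4 rose on the HF+SD, each in all 4 mice above all 4 CD mice, by 2.55-fold and 3.07-fold. The other 8 genes did not pass the test, and their log2 fold changes ran from -0.21 (Deptor) to 0.55 (Sesn3). So 2 of 10 genes passed an adjusted p of 0.05, where 21.5% of all 18249 genes tested did, 12% higher and 9.55% lower. Both were higher and none was lower by edgeR's quasi-likelihood test, and DESeq2 likewise called Castor2 and Ddit4 alone. At an unadjusted p under 0.05 by edgeR, 4 were higher and 0 lower. The share of all genes at that unadjusted threshold is not given, so nothing is read from the 4. The count of 2 is a share close to that of all genes, and non-overlapping diets (2 of 10) were found for 23.8% of all genes.

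Castor2 had 18.7, 20.4, 49.4 and 40.6 CPM in M22, M43, M45 and M48 of the CD, and 68.2, 96.3, 70.1 and 94.1 CPM in the HF+SD mice M5, M18, M34 and M35. The groups did not overlap, and the CD mice fell into a low and a high pair. Means were 32.3 ± 15.1 and 82.2 ± 15.1 CPM (SD, n = 4), with a log2 fold change of 1.35 (SE 0.32, adjusted p = 0.0182 by edgeR). An exact permutation test, two-sided and on log2 CPM, gave p = 0.0286, the smallest that 4 mice against 4 allow.

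The high pair of CD mice, M45 and M48, was also the pair with the most muscle transcripts, as the plot of Castor2 against muscle share shows. The log2 fold change was 2.03 (adjusted p = 0.00485) once a muscle score was a term of the fit and 2.08 (adjusted p = 0.00203) without those 2 mice. The difference was larger in both fits. Leaving out the 2 CD mice with the most Castor2 had to enlarge it. The muscle score ran from 4.34 to 12.6 in the CD mice but only from 5.03 to 6.78 in the HF+SD mice. The slope of the fit with the score thus rested mostly on the CD mice, M45 and M48 among them. Neither fit can show the part of muscle in the Castor2 difference. Without the HF+SD mouse M18 the log2 fold change was 1.27 (adjusted p = 0.0544) and without M35 it was 1.29 (adjusted p = 0.0502), and the other 6 fits that left out 1 mouse stayed under 0.05. The call also ended when libraries were scaled to 9 thyrocyte genes, with 0.21 (adjusted p = 0.667). That scaling moved the median of all genes by -1.01, because counts on the scaling genes stood higher on the HF+SD relative to TMM. Whether the diet itself raised those genes was not tested. Castor2 still stood above the shifted median.

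**Figure D3:**
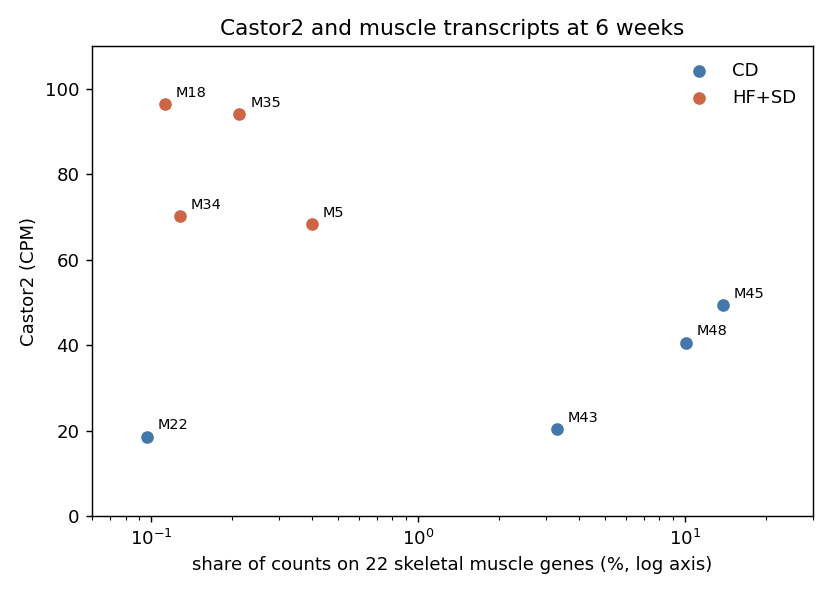
Castor2 in CPM (vertical axis) against the percentage of counts that 22 skeletal muscle genes took (horizontal log axis) in the 8 libraries at 6 weeks, with CD in blue and HF+SD in orange, each point 1 mouse. All 4 HF+SD mice lay above all 4 CD mice, at 68.2 CPM or more, and within the CD the muscle-rich M45 and M48 lay above M22 and M43.

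Ddit4 had 14.2, 20.8, 13.6 and 16.2 CPM in CD mice and 58.6, 47.6, 37.8 and 55.3 in HF+SD mice. The lowest HF+SD mouse thus stood well above the highest CD mouse, and the muscle-rich CD mice lay among the others. Means were 16.2 ± 3.22 and 49.8 ± 9.27 CPM (SD, n = 4), with a log2 fold change of 1.62 (SE 0.19, adjusted p = 0.00072 by edgeR, exact permutation p = 0.0286). It was 1.71 with the muscle score, 1.52 without M45 and M48, and 0.62 (adjusted p = 0.044) when scaled to thyrocyte genes.

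Castor1, the arginine sensor, had 8.52, 6.81, 5.65 and 5.54 CPM on the CD and 5.78, 9.78, 8.70 and 9.56 on the HF+SD, with a log2 fold change of 0.35 (95% interval -0.19 to 0.89, adjusted p = 0.288 by edgeR). Its 174 to 356 counts per library were the fewest of the 10 genes. The diets overlapped, and the interval leaves room for a fall as well as for an increase.

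Sesn1 had 97.6, 105, 78.9 and 80.9 CPM against 64.1, 108, 109 and 89.1, with a log2 fold change of 0.03 (95% interval -0.43 to 0.50, adjusted p = 0.918 by edgeR). Sesn3 had 137, 174, 105 and 110 CPM against 161, 205, 238 and 165, with a log2 fold change of 0.55 (95% interval 0.046 to 1.05, adjusted p = 0.0856 by edgeR). Of the Sestrin pair, Sesn3 had 1 CD mouse (M43) inside the range of the HF+SD mice, and Sesn1 overlapped throughout. Depdc5 had 11.9, 10.7, 13.8 and 12.1 CPM on the CD and 11.1, 13.6, 11.6 and 9.89 on the HF+SD, with a log2 fold change of -0.07 (95% interval -0.44 to 0.31).

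Mtor had 84.7, 65.6, 63.1 and 70.1 CPM in CD mice and 84.1, 90.1, 80.1 and 101 in HF+SD mice, with a log2 fold change of 0.33 (95% interval -0.0087 to 0.66, adjusted p = 0.118 by edgeR). Rptor had 26.9, 17.4, 21.2 and 23.6 CPM against 21.4, 28.7, 25.7 and 31.5, with 0.27 (95% interval -0.16 to 0.69, adjusted p = 0.297 by edgeR). For Mtor only the CD mouse M22 reached the HF+SD range, whereas the diets were intermixed for Rptor.

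Deptor had 141, 174, 241 and 196 CPM on the CD and 139, 190, 174 and 148 on the HF+SD, with a log2 fold change of -0.21 (95% interval -0.67 to 0.25, adjusted p = 0.462 by edgeR). The highest values were again those of M45 and M48, and the difference was 0.09 when adjusted for the muscle score. Tsc2 had 71.4, 47.6, 63.4 and 64.4 CPM against 52.1, 52.7, 45.8 and 64.3, with -0.20 (95% interval -0.59 to 0.19, adjusted p = 0.399 by edgeR). Exons of Tsc2 share 693 bases with those of Pkd1 on the other strand in GENCODE M21, and whether strand was used in counting is not given in the sources used here. Rptor shares 84 exon bases with the antisense Rptoros and Deptor 303 with Gm9920, both with far fewer counts.

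**Figure D4:**
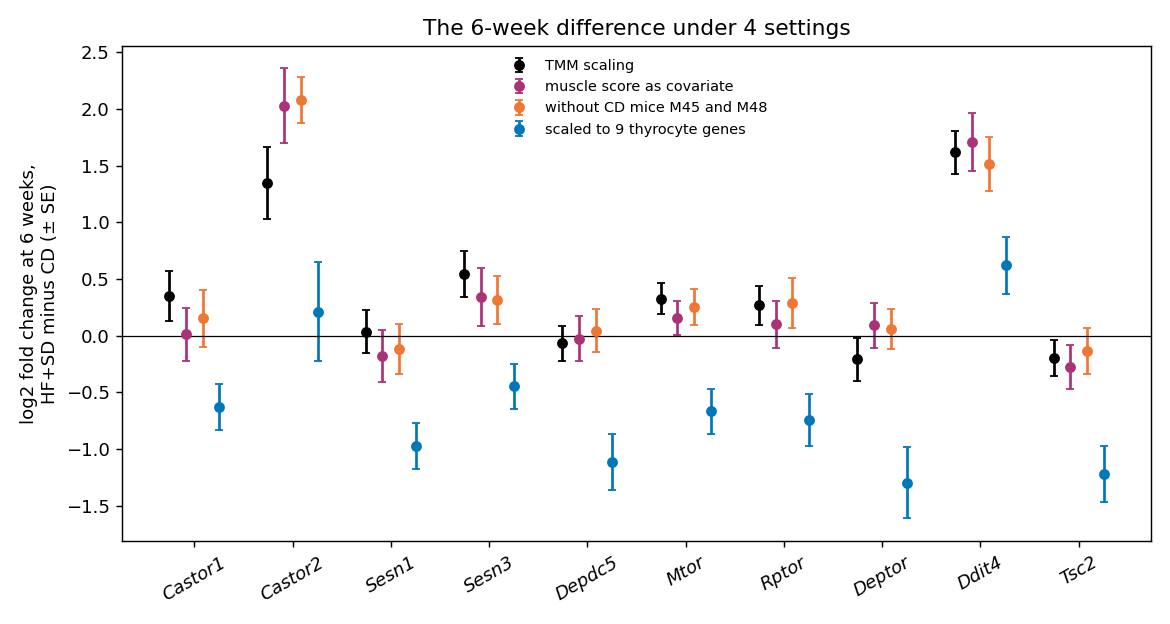
Log2 fold change of HF+SD minus CD at 6 weeks (vertical axis, points, with SE) for the 10 genes under TMM scaling (black), adjusted for a muscle score (purple), without the CD mice M45 and M48 (orange) and scaled to 9 thyrocyte genes (blue). Castor2 stood at 1.35, 2.03, 2.08 and 0.21 in that order. Scaling to thyrocyte genes lowered the values of all 10 genes.

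The genes whose log2 CPM, centred on the mean of each time point, followed Castor2 most closely over the 16 libraries were taken from 17023 genes tested at both times. The closest were Parvb (Pearson r 0.961), which encodes the focal adhesion protein beta-parvin, Slit1 (0.960), a secreted guidance ligand, Agpat3 (0.957), an acyltransferase of phospholipid synthesis, Prex1 (0.957), a Rac exchange factor, and Slc29a1 (0.953), the nucleoside transporter ENT1. Centred on each diet and time group, so that the diet difference is taken out, the same r were 0.792, 0.707, 0.730, 0.769 and 0.820. The most opposite were Rps19 (-0.958), a ribosomal protein gene, Bex4 (-0.956) and Bik (-0.948), a proapoptotic gene, with -0.731, -0.851 and -0.661 within groups. Of the 9 other genes of the set, Mtor (0.723), Rptor (0.630) and Ddit4 (0.542) were nearest to Castor2 when centred on time. Within groups their r were -0.204, 0.115 and -0.174, and Deptor stood highest at 0.772. The libraries share depth and tissue makeup, and these r are a description.

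The rest of the pathway was read from a list of 53 genes, namely other sensors, GATOR1, GATOR2, KICSTOR, Rag GTPases, Ragulator, the folliculin complex, further mTOR subunits, TSC and Rheb, and mTORC1 substrates. At 6 weeks 8 of 53 passed, 1 higher and 7 lower, against 12% and 9.55% of all genes, and at 3 weeks 6 of 53 passed, 2 higher and 4 lower, against 9.07% and 5.78% (14.9% in all). Without M22 of the CD the 6-week count was 15, where 5743 of all 18645 genes passed. Without M45 or M48 it was 3, where 2898 of 18551 and 2390 of 18465 genes passed. With libraries scaled to thyrocyte genes the split was 0 higher and 50 lower at 6 weeks and 1 higher and 34 lower at 3 weeks. Of all 18249 genes, 481 were higher and 13494 lower in that scaling at 6 weeks. At 3 weeks it had 585 of 17238 genes higher and 8855 lower. In 1 fit of all 16 libraries none of the list was higher and 4 were lower at 3 weeks, where 970 of 18929 genes were higher and 450 lower. The list's median log2 fold change was -0.12 at 6 weeks and -0.06 at 3 weeks, where that of all genes was -0.011 and -0.0083. Eif4ebp1, which encodes the translation repressor 4E-BP1 that mTORC1 phosphorylates, was lower at both times. None of the 5 GATOR2, 4 KICSTOR and 3 folliculin complex genes passed at either time by edgeR.

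At 3 weeks the gene of the list that rose most was Rragd, which encodes the Rag GTPase RagD. It had 130, 136, 107 and 98.5 CPM in CD mice and 261, 247, 247 and 273 in HF+SD mice, with no overlap and a log2 fold change of 1.13 (SE 0.11, adjusted p = 0.000386 by edgeR). Nprl3, a GATOR1 subunit and partner of Depdc5, rose from 23.3 to 29.5 CPM on average (n = 4), a log2 fold change of 0.34 (adjusted p = 0.0142 by edgeR) that turned to -0.11 with thyrocyte scaling, where Rragd stood at 0.68.

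Of the 4 that fell at 3 weeks, 3 encode mTORC1 substrates. Eif4ebp1 had 24.1, 22.8, 33.1 and 25.1 CPM on the CD and 15.7, 13.7, 15.5 and 13.3 on the HF+SD (log2 fold change -0.86, SE 0.13, adjusted p = 0.00248 by edgeR). Grb10, an adaptor that dampens insulin receptor signalling, fell by 0.43 on the log2 scale (adjusted p = 0.00632) and Rps6kb1, the S6 kinase, fell by 0.41 (adjusted p = 0.022). Prr5l, which encodes an mTORC2-binding protein, had 6.24, 3.89, 15 and 5.28 CPM against 2.56, 2.07, 3.02 and 3.34 (log2 fold change -1.46, SE 0.39, adjusted p = 0.0327), with the largest CD value in M55. At 6 weeks Prr5l did not pass and stood in the other direction, at 0.67 (adjusted p = 0.0544 by edgeR, and -0.35 with thyrocyte scaling), with all HF+SD mice above all CD mice, and Grb10 stood at 0.16 (adjusted p = 0.409, and -0.86 with thyrocyte scaling).

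At 6 weeks Eif4ebp1 had 27.3, 33.9, 48.7 and 45.5 CPM on the CD and 18.5, 17.5, 17.2 and 18.8 on the HF+SD (log2 fold change -1.11, SE 0.19, adjusted p = 0.00411 by edgeR). Lpin1, which encodes the phosphatidate phosphatase lipin 1, had 52.3, 78.5, 166 and 127 CPM against 22.7, 29.7, 22.2 and 25.9 (log2 fold change -2.08, SE 0.33, adjusted p = 0.0031). Both were highest in the muscle-rich M45 and M48, and both stayed called when adjusted for the muscle score, at -0.69 (adjusted p = 0.0129) and -1.25 (adjusted p = 0.00751).

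The remaining named genes that were lower at 6 weeks lost their call with the muscle score. Ddit4l, which encodes REDD2, the relative of the Ddit4 product, had 10.1, 66.8, 422 and 226 CPM on the CD and 10.5, 6.65, 11.7 and 12.3 on the HF+SD, so M22 lay inside the HF+SD range. Its log2 fold change was -4.14 (adjusted p = 0.0151 by edgeR) and -0.71 (adjusted p = 0.249) with the muscle score. Sar1b, a small GTPase of the COPII coat that also binds leucine, had 63.4, 168, 573 and 345 CPM against 90.2, 77.9, 79.6 and 66.9, with -1.87 (adjusted p = 0.0384) and -0.08 (adjusted p = 0.89) in those fits. Maf1, a repressor of RNA polymerase III, went from -0.58 (adjusted p = 0.0413) to -0.35 (adjusted p = 0.287), and Lars, the leucyl-tRNA synthetase, from -0.48 (adjusted p = 0.0369) to -0.23 (adjusted p = 0.313).

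Outside the naming rule and chosen after their values were seen, Lamtor2, a Ragulator subunit, was lower by edgeR (log2 fold change -0.44, adjusted p = 0.0406), and Mlst8, a subunit of both mTOR complexes, was the 1 list gene that was higher (0.38, adjusted p = 0.048, and -0.63 with thyrocyte scaling). Both lost their call with the muscle score, at -0.22 (adjusted p = 0.331) and 0.33 (adjusted p = 0.222). At 6 weeks the value of Rragd depended on the fit. It had 78.3, 160, 495 and 276 CPM in the CD mice, where the order followed the muscle share, and 270, 333, 339 and 243 in the HF+SD mice. Its log2 fold change was 0.23 (adjusted p = 0.754 by edgeR), and 1.62 (adjusted p = 0.0191) when adjusted for the muscle score and 1.33 (adjusted p = 0.0338) without M45 and M48, but -0.97 (adjusted p = 0.151) with thyrocyte scaling. With the muscle score, 3 of 53 list genes passed at 6 weeks in place of 8, and 2016 of all 18249 genes in place of 3927.

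Whether the diet difference of a list gene differed between 3 and 6 weeks was tested as an interaction in a fit of all 16 libraries. None of 53 passed by edgeR (lowest adjusted p = 0.0602, for Prr5l), and 15 of 53 had an unadjusted p under 0.05, which is 28.3% against 22.3% of all 18929 genes tested. Of all genes 0.0792% passed. Without the CD mouse M22 of 6 weeks 11 of 53 passed, without M43 8 passed, and without M54 of 3 weeks 1 passed. The share of all genes in those fits is not given, so nothing is read from these counts. Sesn2, the third Sestrin, also a target of ATF4 like Ddit4, is outside the naming rule and was chosen after its values were seen. It had log2 fold changes of -0.55 (adjusted p = 0.0682) at 3 weeks and 0.41 (adjusted p = 0.149) at 6 weeks by edgeR.

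**Figure D5:**
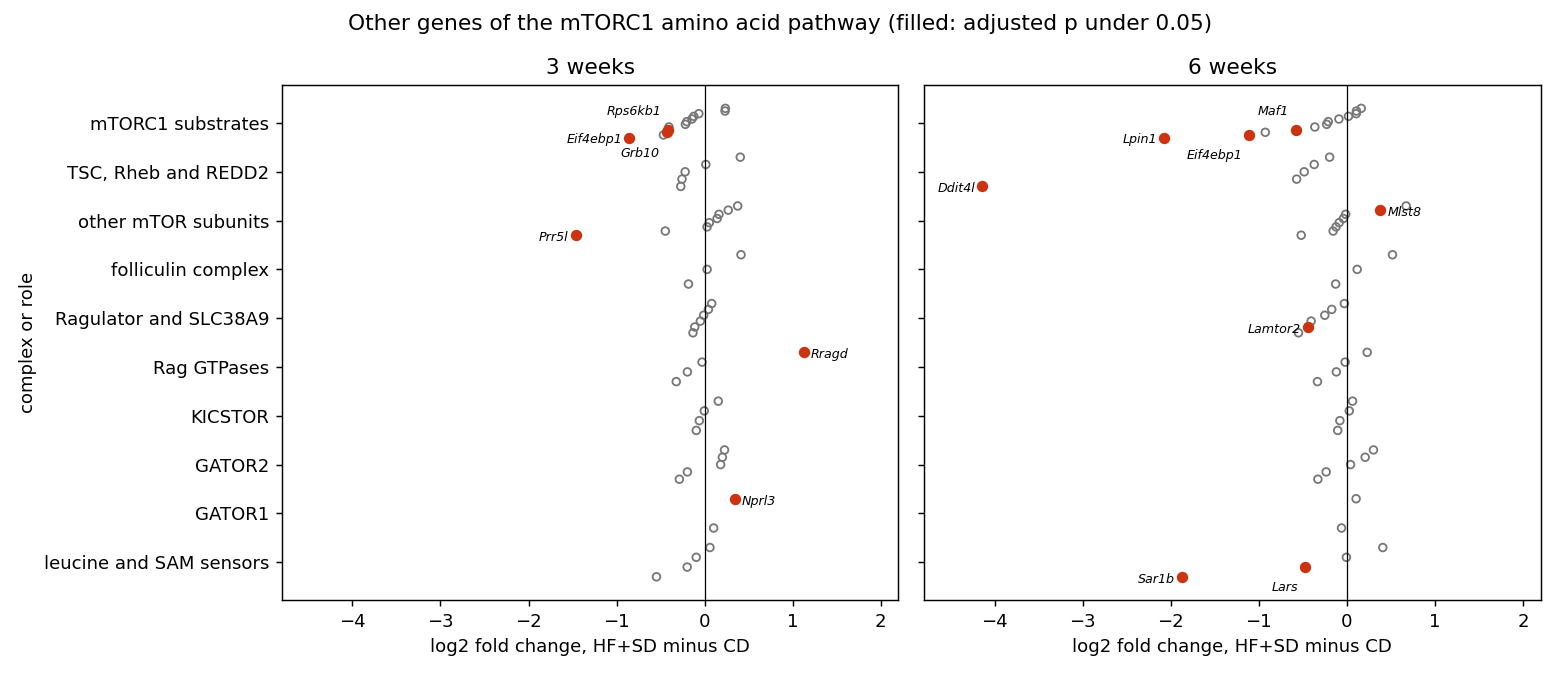
Log2 fold change of HF+SD minus CD (horizontal axis) of the 53 other pathway genes by complex or role (vertical axis) at 3 weeks (left) and 6 weeks (right), each point 1 gene and filled points those with an adjusted p under 0.05. At 3 weeks 2 filled points lie above 0 and 4 below, and at 6 weeks 1 above and 7 below.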

How the data were processed

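Whole thyroids gave 16 poly(A) RNA libraries, 1 per mouse. The submitters' processing notes name Trim Galore 0.6.7, STAR, DESeq2 1.36.0, R 4.1.0 and build mm39. No source used here gives the counting tool or the annotation. The authors deposited raw counts for 21640 genes, which were used, and normalized values, which were not. Symbols came from GENCODE M21 (20841 of 21640 identifiers matched). The reference given is GRCm38, so no gene coordinates other than those of RefSeq promoters are printed.

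The 10 genes and all lists were chosen with earlier results of these data known. Diets were compared at each time by edgeR 4.0.16 (R 4.3.3), with TMM factors, filterByExpr, glmQLFit, glmQLFTest and Benjamini-Hochberg adjustment over all genes tested, at an adjusted p under 0.05 with no fold minimum. The fit was tested on simulated data. An exact permutation test, two-sided, was run on log2 CPM (prior count 2) of each of the 10 genes. The SE was computed as the absolute log2 fold change divided by the square root of the quasi-likelihood F statistic. Intervals are 95% intervals from the log2 fold change and that SE, with a t quantile at the residual degrees of freedom. The edgeR test moderates its degrees of freedom, so interval and p can differ. The 6-week interval of Mtor includes 0 although its unadjusted p by edgeR is 0.04.

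Named genes were the 10 genes, the 6 pathway genes with the largest called difference at each time and any called in the interaction, and the 5 most and 3 least correlated with Castor2. Alternatives were DESeq2 1.42.0, RLE factors, no filter beyond 1 count, each mouse left out, 1 fit of 16 libraries, scaling to 9 thyrocyte genes (Pax8, Nkx2-1, Foxe1, Hhex, Cdh16, Iyd, Duoxa1, Duoxa2 and Slc26a4, of which the first 3 are also in the marker list), a muscle score as a term (the mean log2 CPM of the 22 muscle genes), leaving out M45 and M48, and a minimum absolute log2 fold change of 1.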

Additional observations from a re-analysis of the deposited data

How the results depend on the processing

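At 6 weeks, scaling to thyrocyte genes, which shifted the all-gene median by -1.01 (by -0.46 at 3 weeks), gave Castor2 a log2 fold change of 0.21 and called 8 of the 10 genes, 1 higher and 7 lower, in place of 2. Of all 18249 genes this scaling called 13975, with 481 higher and 13494 lower. It turned Castor1 to -0.63, Sesn1 to -0.98, Sesn3 to -0.45, Mtor to -0.67 and Rptor to -0.75, and Castor2 at 3 weeks moved to 1.19. Genes near 0 turned in other fits as well. Sesn1 went to -0.022 in 1 fit of 16 libraries, -0.18 with the muscle score and -0.12 without M45 and M48, Deptor to 0.092 and 0.059 in the last 2 of these, and Depdc5 to 0.045 without M45 and M48. With 1 mouse left out, Castor2 ran from 1.14 to 1.61 at 6 weeks (adjusted p 0.0116 to 0.0544) and from 1.60 to 1.68 at 3 weeks, Ddit4 at 6 weeks from 1.53 to 1.74, Sesn1 from -0.048 to 0.18 and Depdc5 from -0.16 to 0.0058, and 1 to 3 of the 10 genes were called at 6 weeks, 1 of them without M18 or M35.

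Of the 53 pathway genes, the 8 called at 6 weeks became 4 with a minimum log2 fold change of 1, 12 by DESeq2, 16 in 1 fit of 16 libraries, 50 with thyrocyte scaling, 3 with the muscle score and 3 without M45 and M48. The 6 called at 3 weeks became 2, 10 by DESeq2, 4 in 1 fit of 16 libraries and 35 with thyrocyte scaling. Of all genes at 6 weeks, 2308 of 18249 were called with that minimum and 5273 of 21582 by DESeq2. The fit of 16 libraries called 6182 of 18929, and thyrocyte scaling 13975 of 18249. The muscle score called 2016 of 18249, and leaving out M45 and M48 called 1957 of 18878. At 3 weeks the minimum left 803 of 17238, and DESeq2 called 3644 of 19010. There the fit of 16 libraries called 1420 of 18929, and thyrocyte scaling 9440 of 17238. Leaving out 1 mouse gave 2 (without M18) to 15 (without M22) at 6 weeks, and 3 without each of M45, M48, M5, M34 and M35. Of all genes, 1944 of 18705 were called without M18 and 5743 of 18645 without M22. The count was 4 (without M20y or M31) to 8 at 3 weeks, and 0 to 11 in the interaction. Causes of these shifts were not tested. No paired analysis was possible because the labels name a different mouse for each library. Depth limits Castor1 most, with 174 counts in its lowest library.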
